A study of Nematostella vectensis with 136 samples.

Results

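The constant-dark arm (DD) of a time series in adult *Nematostella vectensis* was compared between its second day, T7 to T12, and its first day, T1 to T6. *Nematostella vectensis* is the starlet sea anemone, a cnidarian of brackish water. Members were all DD libraries of those 12 time points except those with totals under a limit set relative to the median of the series, which gave 46 of the 136 libraries of the series, 24 from T7 to T12 and 22 from T1 to T6. The 2 DD libraries left out were T1 replicate D and T4 replicate B, with totals of 140371 and 2185 counts. DD animals were kept for 1 month in constant darkness and stayed there while they were sampled every 4 h at 17 time points, with 4 replicates, A to D, at each. The animals of the other arm, LD, were kept for the same month under a light:dark cycle, which was then removed; the sampling scheme in the labels places this between T6 and T7. The labels give no strain, sex or clonal line, no clock time, and no statement that replicates were separate animals, so p-values measure the spread between these samples, which may be partly technical. RNA came from whole organisms, in which fewer cells of a type and less RNA per cell cannot be told apart.

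A circadian clock is an internal oscillator that keeps running, with a period near a day, when light cues are absent. In constant darkness the rhythms of single animals are no longer set by a shared signal, so a sample at a given hour can come from animals at different phases. Comparing the same hour on successive days in unchanged darkness measures what differs between days when the light regime does not. No table at hand pairs the gene identifiers of the counts with names, so the genes are given by identifier, no role can be stated for them, and the tissue label could not be checked against marker genes.

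Per the labels, lane 5 held T1 to T12 of either arm and lane 7 held T13 to T17. The labels of all 24 DD libraries of T1 to T6 open with an extra code that runs with replicate letter and time point and that 0 other libraries carry; what it stands for is not given, so day and that code cannot be told apart within DD. The median total count was 487187 (range 207665 to 688622) at T7 to T12 and 544804 (range 370101 to 640493) at T1 to T6. The hour-paired difference of the totals, -46838.6 counts, had a permutation p of 0.107 before and 0.107 after Benjamini-Hochberg adjustment over 5 library summaries. T9 and T10 had lower totals in either arm, with means of 330794 and 407080 in DD and of 440892 and 406872 in LD. Replicates differed by more than sampling noise in each of 66 pairs within the DD groups of T1 to T12, where the smallest ratio of chi-square to its degrees of freedom was 3.73, and none was merged.

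On the second day the most abundant genes took a larger share of the counts on average. The 100 largest genes are here those with the largest mean share over 133 libraries of the series, the same genes in every library. The 10 largest come from the same ranking. The 100 genes took 37.2 ± 2.57% of a library's counts at T7 to T12 (SD, n = 24) and 34.9 ± 1.51% at T1 to T6 (SD, n = 22), an hour-paired difference of 2.32 percentage points (two-sided permutation test of day labels within hours, p = 0.00019, adjusted p = 0.00095). By hour, their mean share was below that of the first day only at T8, with 35.2% against 35.8% at T2. The 10 largest genes took 10.5 ± 1.98% at T7 to T12 and 9.54 ± 0.83% at T1 to T6 (adjusted p = 0.00967, same permutation test). That difference, 0.995 percentage points when paired by hour, rested on T9: without the hour of T3 and T9 it was 0.352 points (adjusted permutation p = 0.252), and without replicate D of all groups 0.708 points (adjusted permutation p = 0.0567). Thinned to 200000 counts, a library held 12837 ± 317 detected genes at T7 to T12 and 13117 ± 245.7 at T1 to T6 (adjusted permutation p = 0.00338), and without the hour of T5 and T11 the hour-paired difference was -181.9 genes, against -269.3 with all hours, at an adjusted permutation p of 0.0575. TMM factors, which correct a library's size for such shifts in composition, averaged 0.968 ± 0.053 at T7 to T12 and 1.03 ± 0.047 at T1 to T6 (adjusted permutation p = 0.00117). T9, the hour with the lowest totals in DD, stood highest for the share of the 100 largest genes, with a mean of 40.7% in DD. In LD that share averaged 35.4 ± 3.08% at T7 to T12 and 34.03 ± 2.16% at T1 to T6, and on the third day, T13 to T17, it averaged 37.0 ± 2.17% in DD and 36.6 ± 2.86% in LD.

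Few genes passed the test between the 2 days. Of 10648 genes tested, 94 (0.883%) differed between T7 to T12 and T1 to T6 in DD at an adjusted p under 0.05 (edgeR quasi-likelihood test, mean of the 6 differences at the same hour), 62 higher (0.582%) and 32 lower (0.301%) on the second day. At an unadjusted p under 0.05 stood 1381 genes (13%). The differences were modest: the 62 genes had a median log2 difference of 0.44, with a range from 0.17 to 1.78 apart from 1 gene that was at 0 in whole groups, and the 32 had a median of -0.52, with a range from -1.26 to -0.32. The median over all tested genes was -0.01. In simulated counts the same fit called 14.9% of genes changed by 0.5 log2, so the number of calls does not measure how many genes changed by that much.

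The count of calls was not stable. It was 48, 3, 25 and 0 without replicate A, B, C and D of all groups (edgeR; 1142 genes at an unadjusted p under 0.05 without D). Of 46 single DD libraries left out in turn, 7 moved it by over 1.5 times: it was 38 without T1 replicate A, 54 without T2 replicate C, 56 without T3 replicate D, 54 without T4 replicate C, 59 without T8 replicate A, 59 without T11 replicate D and 61 without T12 replicate D. The balance of directions depended on scaling: with library size alone in place of TMM factors, 1.34% of genes were called and 18.2% of those were higher, against 66.0% with TMM factors, while the median over all tested genes stood at -0.09.

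**Figure D1:**
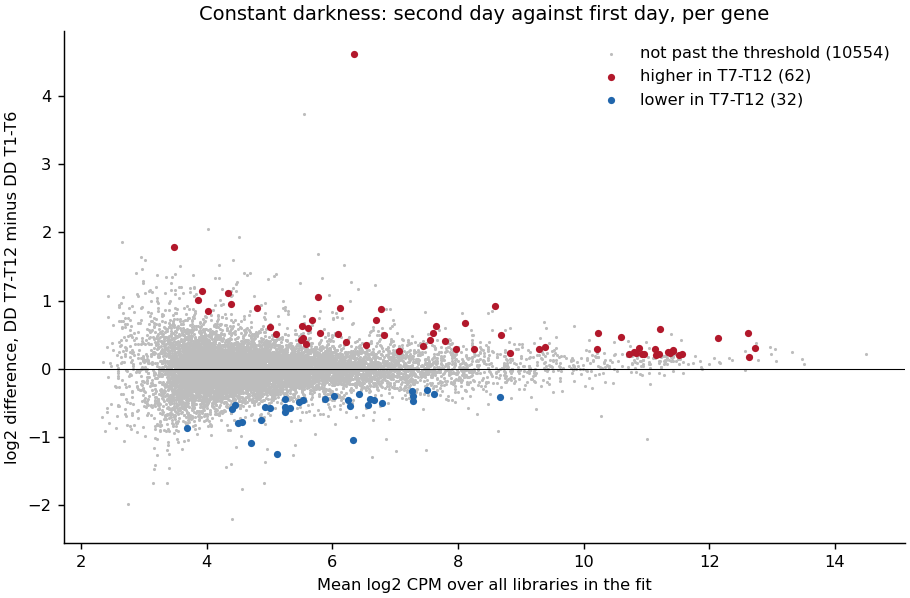
Each point is 1 of the tested genes, with its mean log2 CPM over all libraries in the fit on the horizontal axis and its DD log2 difference, T7 to T12 minus T1 to T6, on the vertical axis. Red points are the 62 genes called higher and blue points the 32 called lower; the uppermost red point is NVE19652, whose fitted value depends on the prior count because some of its groups are all at 0.

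Calls were most frequent among abundant genes, where the standard error was smallest. Split into 3 equal classes by mean abundance, the high class had 72 of 3549 genes called (2.03%), 53 higher and 19 lower. The middle class had 17 of 3549 (0.479%), 5 higher and 12 lower, and the low class 5 of 3550 (0.141%), 4 higher and 1 lower. The median standard error of the log2 difference was 0.12, 0.17 and 0.26 in the high, middle and low class. The 62 genes higher on the second day had a median mean level of 7.88 log2 CPM (CPM are counts relative to scaled library size), and 40 of them exceeded 100 CPM; the 32 lower genes had a median level of 5.70 log2 CPM, and 8 exceeded 100 CPM. The 62 genes together took 7.30% of counts at T7 to T12 and 6.15% at T1 to T6, and the 32 genes took 0.212% at T7 to T12 and 0.309% at T1 to T6. How far the concentration of counts in abundant genes, described above, moves with these calls was not tested beyond the change of scaling.

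NVE4779 had the smallest p and was chosen for that after its values were seen. Its level at T7 to T12 had a lowest value of 216.1, a median of 524 and a highest of 899.7 CPM over 24 libraries, and at T1 to T6 a lowest value of 115, a median of 242.4 and a highest of 507 CPM over 22 libraries. The ranges overlapped, but 21 of the 24 libraries of the second day stood above the median of the first, and 13 above all of them. Its mean was 500 ± 188.9 CPM at T7 to T12 (SD, n = 24) and 260 ± 92.4 CPM at T1 to T6 (SD, n = 22), a log2 difference of 0.93 ± 0.14 (SE, adjusted p = 3.8e-05 by edgeR). The higher level was reached within the second day: the means were 400 CPM at T7 and 270 CPM at T8, then 581, 571, 548 and 628 CPM at T9, T10, T11 and T12. All 4 libraries of T9, between 548 and 634 CPM, stood above all first-day libraries. On the third day its DD mean was 566 CPM at T13 and 250.6 CPM at T17. In LD it averaged 431 ± 202.97 CPM at T7 to T12 and 214.4 ± 72.3 CPM at T1 to T6, a log2 difference of 0.93 ± 0.14 (adjusted p = 2.31e-06), in other libraries than those of DD. Its DD call was lost without replicate D and for T7 to T9 against T1 to T3 alone, and held in the 46 fits that left out a single library.

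NVE17084 was the most abundant gene called, and was singled out after its values were seen. It ranged from 4018 to 10731 CPM with a median of 7256 CPM at T7 to T12, and from 3759 to 8153 CPM with a median of 5834 CPM at T1 to T6. The groups overlapped widely, with 8 of 24 second-day libraries above every first-day library. Its means were 7485 ± 1451 CPM at T7 to T12 and 6082 ± 1175 CPM at T1 to T6, a log2 difference of 0.30 ± 0.08 (edgeR, adjusted p = 0.0363), positive at each of the 6 hours. In LD the difference was 0.12 ± 0.08 with an adjusted p of 0.46. The DD call was lost in 17 of 46 fits without a single library. It was also lost in 12 of 25 other settings, among them library size alone as scaling and the fits without replicate B, C or D of all groups. Its sign was positive in all of those fits.

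The called gene with the largest fitted rise, NVE19652, was near 0 in some libraries and high in the others. It exceeded 50 CPM in 14 of 24 libraries at T7 to T12 and in 3 of 22 at T1 to T6, a level chosen after its values were seen. Libraries above that level held 96.4 to 380 CPM at T7 to T12 and 147.3 to 181.7 CPM at T1 to T6, and the rest held at most 1.52 CPM at T7 to T12 and at most 2.01 CPM at T1 to T6, so no library lay between. The means, 117 ± 118 CPM at T7 to T12 and 23.2 ± 59.6 CPM at T1 to T6, follow the number of libraries above that level (adjusted p = 0.0228, edgeR). Without T12 replicate D, 1 library, the adjusted p was 0.634. The call was also lost in 12 of 24 other settings, among them each fit without 1 replicate letter. On the third day 9 of 20 DD libraries exceeded 50 CPM, and in LD 12 of 24 did at T7 to T12, 12 of 24 at T1 to T6 and 9 of 19 at T13 to T17, so first-day DD had the fewest. No fold is given, because all 4 libraries were at 0 at T3 and at T6.

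NVE15270, the other gene named among those that rose, was low and patchy. It ranged from 0 to 28.2 CPM with a median of 9.32 CPM at T7 to T12, and from 0 to 21.7 CPM with a median of 1.67 CPM at T1 to T6. The groups overlapped, but 20 of 24 second-day libraries exceeded the first-day median. Its log2 difference was 1.78 ± 0.48 (edgeR, adjusted p = 0.0446). The call was lost in 30 of the 46 fits without a single library, at adjusted p-values of up to 0.094. It was also lost in 14 of 23 other settings, among them each fit without 1 replicate letter. In LD it averaged 7.30 CPM at T7 to T12 and 7.22 CPM at T1 to T6. Its median was 15.0 CPM in the 17 DD libraries of T1 to T12 that carried NVE19652 above 50 CPM and 1.93 CPM in the 29 that did not, a pattern noticed in these libraries and given as a description.

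NVE19366 had the largest fall among the called genes. It ranged from 1.94 to 68.2 CPM with a median of 18.7 CPM at T7 to T12, and from 7.24 to 247.5 CPM with a median of 47.0 CPM at T1 to T6. The groups overlapped, and 20 of 24 second-day libraries lay below the first-day median. Its means were 23.5 ± 18.1 CPM at T7 to T12 and 54.8 ± 52.1 CPM at T1 to T6, a log2 difference of -1.26 ± 0.33 (edgeR, adjusted p = 0.0363). The highest first-day value came from T1 replicate A, and the call was lost without that library, as it was in 13 of 46 such fits, at adjusted p-values of up to 0.141. In 12 of 25 other settings the call was lost as well, among them each fit without 1 replicate letter. On the third day DD averaged 28.9 ± 21.3 CPM. LD averaged 20.8 ± 17.3 CPM at T7 to T12 and 39.0 ± 27.2 CPM at T1 to T6, with an adjusted p of 0.122.

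NVE9434 fell in both arms. In DD it ranged from 0 to 27.97 CPM with a median of 12.3 CPM at T7 to T12, and from 5.50 to 65.1 CPM with a median of 21.0 CPM at T1 to T6. Below the first-day median lay 21 of 24 second-day libraries. Its DD log2 difference was -1.10 ± 0.27 (edgeR, adjusted p = 0.026), negative at all 6 hours. In LD it averaged 18.3 ± 11.45 CPM at T7 to T12 and 50.04 ± 20.3 CPM at T1 to T6, a log2 difference of -1.59 ± 0.24 (adjusted p = 2.19e-06). The first-day mean in DD, 25.1 CPM, was below that of LD, and by the third day the arms were near each other at 10.1 ± 5.81 CPM in DD and 12.1 ± 8.27 CPM in LD. Among fits without a single library, the DD call was lost without T1 replicate B and without T4 replicate D, at adjusted p-values of up to 0.118. It was also lost in 9 of 23 other settings, among them without replicate B, C or D of all groups.

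**Figure D2:**
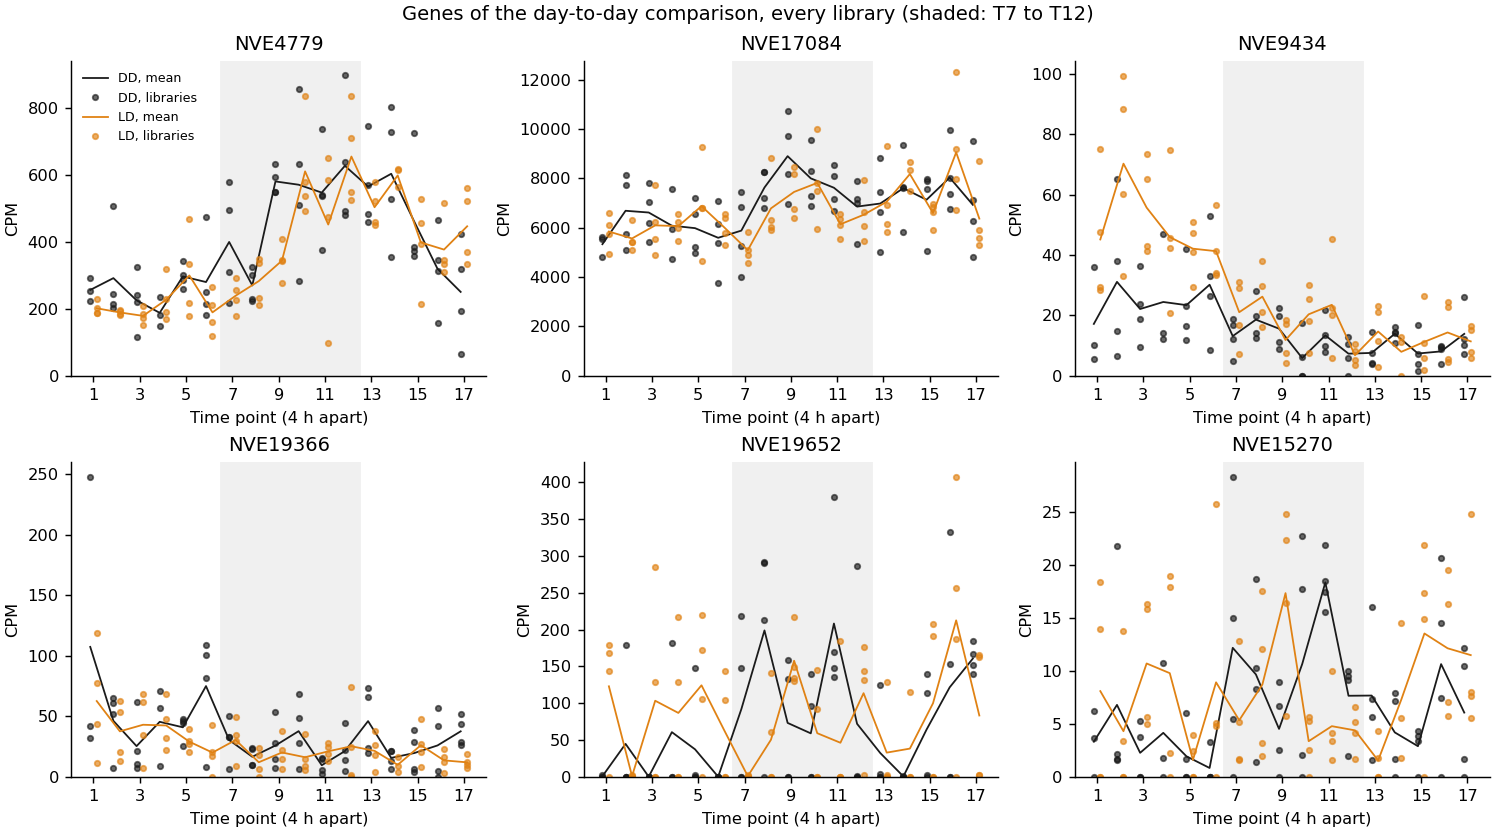
CPM of 6 genes in every library (points) and the mean of each time point (lines), for DD in black and LD in orange, over time points 4 h apart; the shaded span is T7 to T12. NVE4779 stands near 600 CPM from T9 to T14 in DD, NVE9434 declines in both arms, and NVE19652 is either near 0 or above 50 CPM.

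The called genes were followed hour by hour; since they were chosen on these libraries, the values at T1 to T12 describe them and test nothing. For the 62 higher genes the median log2 difference was 0.36 at T7 minus T1, 0.14 at T8 minus T2, 0.37 at T9 minus T3, 0.28 at T10 minus T4, 0.60 at T11 minus T5 and 0.53 at T12 minus T6. For the 32 lower genes it was -0.44, -0.30, -0.57, -0.51, -0.54 and -0.59 in the same order of hours. T8 was the hour nearest to its first-day counterpart in both sets. The higher level at all 6 hours was seen in 28 of the 62 genes (45.2%), and the lower level at all 6 in 25 of the 32 (78.1%); over all tested genes, 6.35% of those with a positive and 7.40% of those with a negative difference had one sign throughout. Tested alone, single hours gave 0 calls at the first 4 hours, with 410, 370, 826 and 542 genes at an unadjusted p under 0.05, then 3 calls (0.0282%) at T11 minus T5 and 4 (0.0376%) at T12 minus T6 (edgeR).

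More genes were called at the later hours. T10 to T12 against T4 to T6 gave 79 calls (0.742%), of which 30 were among the 94, whereas T7 to T9 against T1 to T3 gave 0 calls (0%) with 736 genes at an unadjusted p under 0.05 (edgeR). The called genes nevertheless had medians of 0.33 at T7 to T9 and 0.45 at T10 to T12 for the 62, and of -0.47 at T7 to T9 and -0.52 at T10 to T12 for the 32. Whether the sets differ between these spans was not tested.

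**Figure D3:**
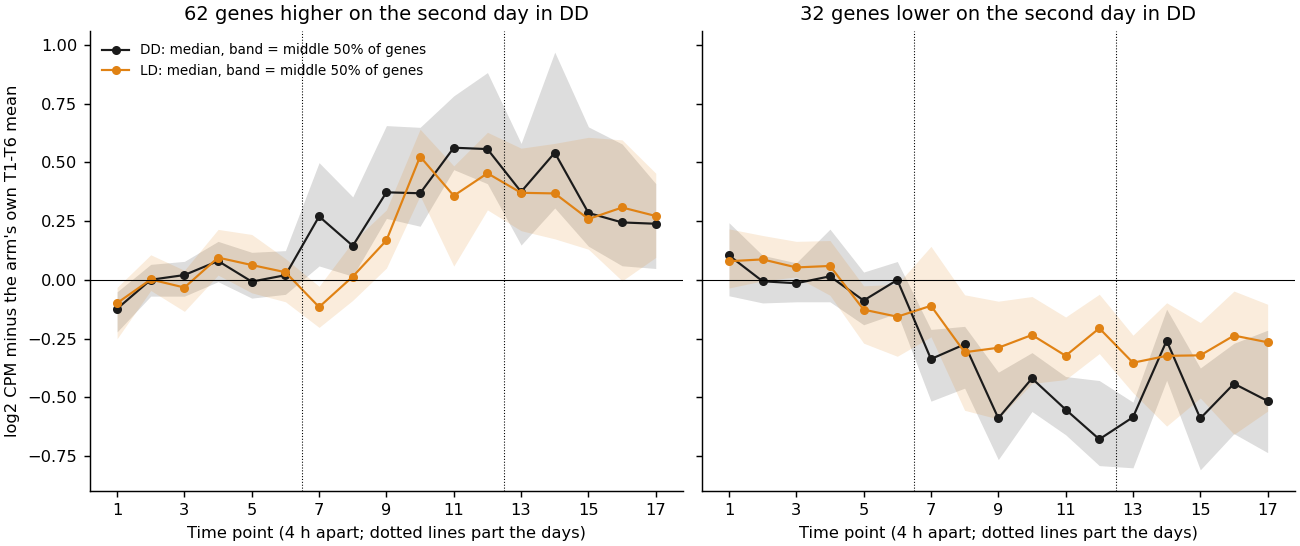
Median log2 CPM of the 62 higher genes (left) and the 32 lower genes (right) at each time point, minus the mean of T1 to T6 of the same arm, for DD in black and LD in orange; bands hold the middle 50% of genes and dotted lines part the days. In DD the 62 genes reach 0.56 at T11 and T12 and stand at 0.24 at T17, and the 32 genes reach -0.68 at T12 and stand at -0.52 at T17.

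On the third day the medians of the called sets had the sign of the second day. Relative to the DD mean of T1 to T6, the 62 genes had a median of 0.37 at T13, 0.54 at T14 and 0.28, 0.24 and 0.24 at T15, T16 and T17. The 32 genes had a median of -0.58 at T13, -0.26 at T14, -0.59 at T15, -0.44 at T16 and -0.52 at T17. Those values share the first-day libraries with the comparison that chose the genes, and T13 to T17 ran on another lane. For the third day against the second at matched hours, T13 to T17 minus T7 to T11, the medians were -0.01 for the 62 and -0.05 for the 32, and 5 of the 62 and 0 of the 32 were called there, against 0.892% of all tested genes. Of those 5 genes 0 were lower on the third day than on the second. The libraries of T7 to T11 also served to choose the 62 and the 32, so this contrast describes the sets and is no independent check.

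The LD arm gives the same contrast of days in libraries that share none with DD, with the difference that LD animals also lost their light cycle between the days. There 434 genes were called (4.08%), 2.33% of genes higher and 1.75% lower at T7 to T12. Of the 62 genes higher in DD, 59 had a positive difference in LD (95.2%, against 61.4% of all tested genes that were positive in DD), and 25 were called higher there. Of the 32 genes lower in DD, 28 had a negative difference in LD (87.5%, against 55.3% of all tested genes that were negative in DD), and 7 were called lower there. No gene was called in opposite directions. The 32 genes called in both arms were 34.04% of the DD list and 7.37% of the LD list. The LD differences of the DD-called genes had medians of 0.23 for the 62 and -0.24 for the 32, beside DD values that served to choose the genes. In LD the 62 genes had medians of -0.01 at T7 minus T1 and 0.03 at T8 minus T2, then 0.26, 0.42, 0.40 and 0.40 at the later hours, so the LD medians of the first 2 hours lay near 0, beside 0.36 and 0.14 in DD; this was not tested. The 32 genes had LD medians of -0.16, -0.34, -0.42, -0.32 and -0.30 at the first 5 hours and 0.05 at T12 minus T6, where 14 of the 32 were lower in LD, beside -0.59 in DD. Both arms shared lane, sampling times and the scaling of the whole table. The 62 genes had a median level of 7.88 log2 CPM, against 4.72 for all tested genes positive in DD. For the 32 it was 5.70, against 4.61 for all tested genes negative in DD. The shares of matching sign were not compared at matched abundance or under another scaling.

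**Figure D4:**
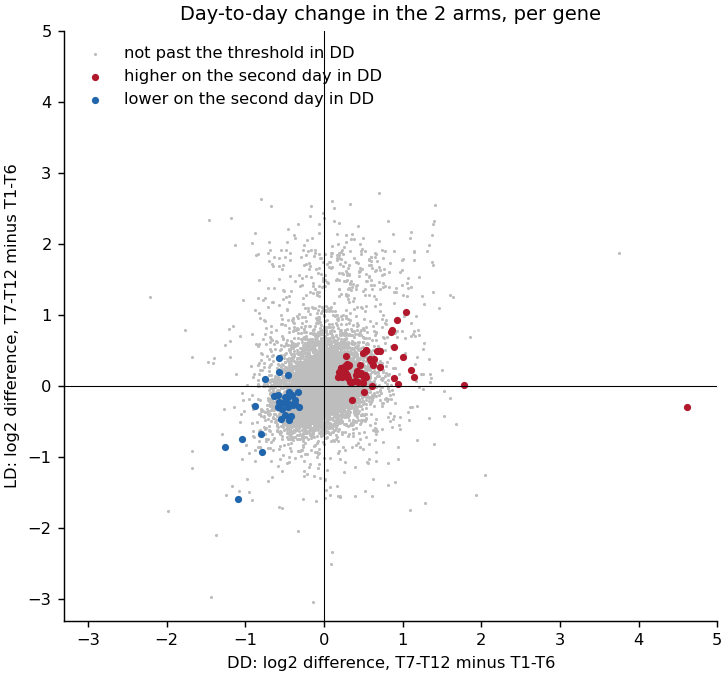
Log2 difference between days, T7 to T12 minus T1 to T6, in DD (horizontal axis) and in LD (vertical axis) for each tested gene; red and blue mark the 62 genes called higher and the 32 called lower in DD. Of the red points 59 lie above 0 in LD, and of the blue points 28 lie below 0; the red point farthest right is NVE19652, whose fitted DD value depends on the prior count.

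Tested directly, the change between days differed between the arms for 8 genes (0.0751%), 6 of them (0.0563%) with the more positive change in DD (edgeR, adjusted p under 0.05; 944 genes, 8.87%, at an unadjusted p under 0.05). For the 2 genes with the largest positive difference the movement was in LD. In that arm their high first-day level was confined to T1 to T3. NVE8679 averaged 25.8 ± 15.9 CPM at T7 to T12 and 24.2 ± 15.1 CPM at T1 to T6 in DD, with an adjusted p of 0.803, while in LD it averaged 20.4 ± 11.52 CPM at T7 to T12 and 73.2 ± 47.5 CPM at T1 to T6. Its LD means at T1 to T6 were 121.3, 124.4, 105.4, 34.5, 25.4 and 28.2 CPM. The difference of its changes was 1.76 ± 0.34 (log2, adjusted p = 0.00453). NVE5408 averaged 94.6 ± 40.8 CPM at T7 to T12 and 81.5 ± 41.8 CPM at T1 to T6 in DD, and 95.8 ± 41.2 CPM at T7 to T12 and 234.4 ± 142 CPM at T1 to T6 in LD, a difference of changes of 1.34 ± 0.24 (adjusted p = 0.00278). Its LD means at T1 to T6 were 414.7, 390.9, 278.1, 92.4, 118.5 and 112.0 CPM.

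In the other direction, NVE7680 was the gene of the 94 whose DD change differed from that of LD. It ranged from 7.44 to 38.9 CPM with a median of 20.9 CPM at T7 to T12 in DD, and from 19.6 to 55.6 CPM with a median of 30.9 CPM at T1 to T6. Below all first-day libraries lay 9 of 24 second-day libraries. Its DD difference was -0.57 ± 0.15 (edgeR, adjusted p = 0.0446), its LD difference 0.40 ± 0.15 (adjusted p = 0.103), and the difference of changes -0.97 ± 0.21 (adjusted p = 0.0305). NVE18005 had a difference of changes of -1.999 ± 0.44 (adjusted p = 0.0305). In DD it averaged 14.5 ± 9.09 CPM at T7 to T12 and 24.3 ± 11.47 CPM at T1 to T6 (adjusted p = 0.279), while in LD it averaged 54.4 ± 68.8 CPM at T7 to T12 and 19.1 ± 23.7 CPM at T1 to T6. All 4 were lost without replicate A and without replicate C, and the count of 8 was 0 without replicate A, 2 without B, 0 without C and 1 without D (edgeR, over all groups).

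The difference between the days depended on the hour for 2 genes (0.0188%; 492 genes, 4.62%, at an unadjusted p under 0.05), NVE10468 (adjusted p = 2.98e-05) and NVE19960 (adjusted p = 0.000757, both edgeR, joint test of 5 contrasts). At T9 NVE10468 held 348, 293, 476 and 155.4 CPM, against 10.6 to 70.1 CPM at T3, so every T9 library was above every T3 library. At T12 it held 16.7, 28.2, 17.3 and 31.8 CPM, against 957, 942, 379 and 441 CPM at T6, so every T12 library was below every T6 library. T11 was low as well, with 15.5 to 43.7 CPM, against 50.9 to 548 CPM at T5. Its highest mean on the first day was at T6. On the second day the means of T9 and T10 were near each other, at 318 and 323 CPM, and the 4 libraries of T10 spread from 90.0 to 775 CPM. On the third day it averaged 17.6 CPM at T13, 29.1 CPM at T14, 238.8 CPM at T16 and 324 CPM at T17.

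NVE19960 was low and high at the same hours. At T12 it held 24.3, 34.9, 50.1 and 25.4 CPM, against 617, 587, 202.9 and 249.4 CPM at T6, and at T9 61.1 to 199.3 CPM, against 32.5 to 64.7 CPM at T3. At T11 it held 17.5 to 35.8 CPM, against 40.7 to 406 CPM at T5. In LD both genes were highest at T10, with means of 402 ± 240 CPM for NVE10468 and 223.9 ± 149.6 CPM for NVE19960, against 76.6 ± 76.0 CPM and 65.6 ± 27.6 CPM at T4. Averaged over hours, neither passed the threshold between the days. The log2 difference was -0.39 ± 0.35 for NVE10468 (adjusted p = 0.699) and -0.64 ± 0.29 for NVE19960 (adjusted p = 0.305, both edgeR). The call of NVE10468 was lost without replicate A, and that of NVE19960 without A, without B and without C, with adjusted p-values of up to 0.106 and 0.503.

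**Figure D5:**
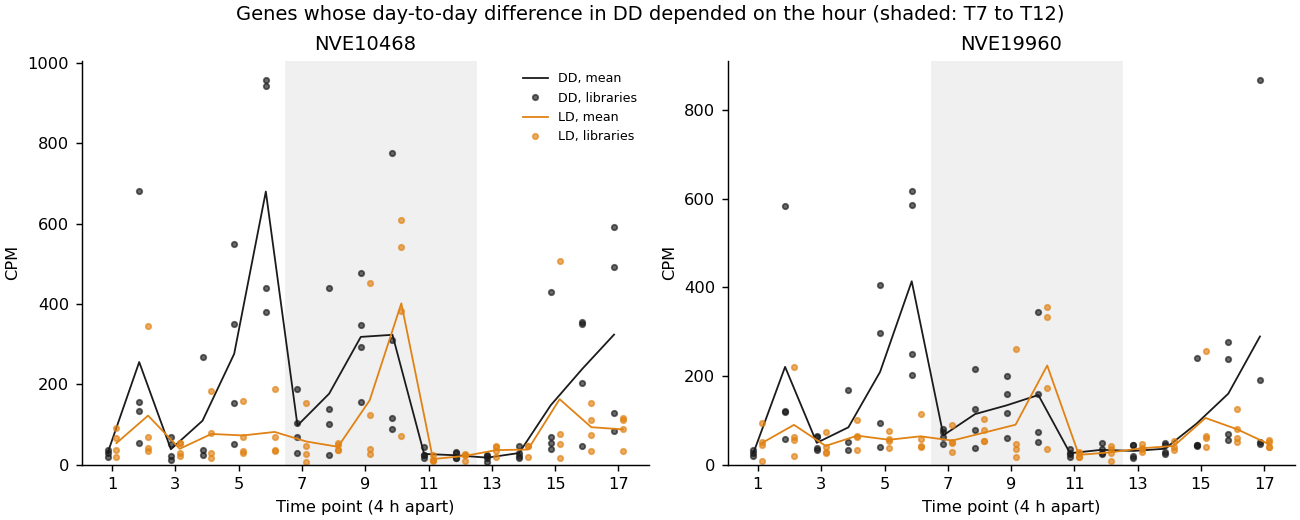
CPM of NVE10468 (left) and NVE19960 (right) in every library (points) and the mean of each time point (lines), for DD in black and LD in orange; the shaded span is T7 to T12. In DD both genes are highest at T6 on the first day, high at T9 and T10 on the second, and at or below 50.1 CPM in all libraries of T11 and T12.

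Between the third day and the second in DD, T13 to T17 minus T7 to T11, 95 genes were called (0.892%), 62 higher (0.582%) and 33 lower (0.31%) (edgeR; 1275 genes, 12%, at an unadjusted p under 0.05); lane and day cannot be told apart there. NVE1808, an abundant gene, ranged from 2.41 to 3675 CPM with a median of 347 CPM at T13 to T17, and from 518 to 6823 CPM with a median of 1818 CPM at T7 to T11. Its log2 difference was -1.97 ± 0.48 (adjusted p = 0.0219), and its means at T7 to T11 were 2167, 2818, 4826, 1116 and 780 CPM. Over all 6 hours its second day against the first gave -1.04 ± 0.43 (adjusted p = 0.266), which did not pass the test. In LD it averaged 940 ± 1229 CPM at T13 to T17, 1800 ± 1444 CPM at T7 to T12 and 3677 ± 1875 CPM at T1 to T6.

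NVE24306 averaged 2.55 ± 2.49 CPM at T13 to T17 and 7.76 ± 5.58 CPM at T7 to T11 in DD, a log2 difference of -1.55 ± 0.41 (edgeR, adjusted p = 0.0369). It was a low gene, with at most 8 counts in a DD library of T7 to T11. NVE1644 ranged from 2.37 to 1156 CPM with a median of 57.6 CPM at T13 to T17, and from 0 to 265.7 CPM with a median of 13.5 CPM at T7 to T11, a log2 difference of 2.75 ± 0.61 (adjusted p = 0.008). NVE4767 averaged 7.36 ± 6.48 CPM at T13 to T17 and 2.68 ± 2.76 CPM at T7 to T11 (adjusted p = 0.0378); all its T9 libraries were at 0, so no fold is given. In LD the log2 difference of T13 to T17 minus T7 to T11 was -1.11 for NVE24306, 1.24 for NVE1644 and 0.03 for NVE4767, given without a test. The DD calls depended on the setting, with adjusted p-values of up to 0.286 for NVE1808 (lost in 3 of 13 settings), 0.274 for NVE1644 (3 of 12), 0.232 for NVE24306 (4 of 9) and 0.269 for NVE4767 (6 of 10). Each of the 4 calls was lost without replicate B and without replicate C of all groups. The count of 95 was 48, 13, 39 and 14 without replicate A, B, C and D of all groups.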

How the data were processed

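Whole-organism RNA was sequenced from 136 libraries. The authors deposited 1 table of raw counts, 24384 genes by 136 libraries, without normalization. Per the submitters' processing notes Bowtie2 was used, with no version, and per the labels the genome is that of Putnam et al.; the counting tool, its strand setting, the gene models and the handling of reads shared by similar genes stand as not given in the sources used here, so overlapping genes or near-identical copies may share counts. Columns were matched to samples by the number in the titles. Gene identifiers matched 0 entries of the name table at hand, so the lists of named marker genes were not used.

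The count test was edgeR 4.0.16 (R 4.3.3): filterByExpr over 34 groups (arm by time point) kept 10648 genes, TMM factors were used, and 1 quasi-likelihood fit (glmQLFit, trended dispersion) of 34 group means to 133 libraries with a total of at least 179339 left 99 residual degrees of freedom. Comparisons are contrasts of those means, with Benjamini-Hochberg adjustment over the tested genes and a threshold of 0.05; the standard error is the log2 difference divided by the square root of F. CPM use TMM-scaled library sizes. Library summaries were compared with 100000 permutations of the day within hours.

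The genes named were, for each comparison, up to 2 called genes in each direction with the largest absolute log2 difference, given a mean log2 CPM of 2 or more, and for the test of hours the 2 with the smallest p; others are marked in the text. The comparison, its members and these lists were chosen with earlier results of these data known. Other settings were DESeq2 1.42.0, limma-voom (limma 3.58.1), RLE factors, library size alone, other filters, shallow libraries kept, fits of fewer libraries, a replicate block, half-days, and left-out letters, hours and libraries; edgeR's newer fit, single left-out libraries and the share of the 100 largest genes were added after seeing the data. The fits were tested on counts simulated from 1 mean per gene over all libraries, the depths of these libraries and the trended dispersion. Of genes given a change of 1 log2 between the DD days, 83.5% were called. With a change of 0.5 log2, 14.9% were called. For the test of hours, 65.5% of genes changed by 1 log2 were called.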

Additional observations from a re-analysis of the deposited data

Results flagged for a closer look

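In the DD groups of T1 to T12 with 4 libraries, 7 genes (NVE19652, NVE15270, NVE19366, NVE9434 and NVE4779 of the day comparison, NVE10468 and NVE19960 of the hours) and the total count were looked at on a log2 scale, for genes log2 CPM with a prior count of 2. In 10 of 78 such groups of values, 1 library's gap to its nearest neighbour, divided by the range of the group, exceeded Dixon's critical value of 0.829. For normally distributed values, chance gives about 1 in 20. That rate does not hold for genes with libraries at 0, where a single value above 0 gives a ratio of 1. The ratios are on that log2 scale, and the levels beside them are CPM. For NVE19652 these were T2 replicate D (ratio 1; 178.5 CPM, against 0 in the others), T5 replicate A (0.901; 147.3 CPM, against at most 1.70 CPM), T8 replicate B (0.929; 0 CPM, against 213.2 to 291 CPM) and T12 replicate D (0.923; 286 CPM, against at most 1.52 CPM). For NVE15270 they were T2 replicate D (0.934; 21.7 CPM, against 1.58 to 2.17 CPM), T6 replicate C (ratio 1; 3.30 CPM, against 0) and T12 replicate C (0.927; 1.93 CPM, against 9.11 to 9.96 CPM). For NVE19366 they were T2 replicate D (0.887; 7.24 CPM, against 51.996 to 64.8 CPM), T5 replicate C (0.863; 25.2 CPM, against 44.1 to 48.1 CPM) and T6 replicate A (0.878; 8.39 CPM, against 81.9 to 109 CPM). T2 replicate D appears for all 3 genes.

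A change between days that differed between DD and LD was found for NVE8679 (1.76 on the log2 scale), NVE5408 (1.34), NVE18005 (-1.999) and NVE7680 (-0.97), each the DD change minus the LD change. A change between days that differed among hours in DD was found for NVE10468 (adjusted p = 2.98e-05) and NVE19960 (adjusted p = 0.000757, edgeR).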

How the results depend on the processing

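Counts of calls are given as a share of the genes tested. The share for the days in DD, 0.883% (94 genes), became 1.99% with DESeq2, 1.34% with library size alone, 0.123% with no filter beyond 1 count (30 of 24383 genes), 2.96% with at least 10 counts in most libraries (5582 genes tested), 2.5% with only DD libraries of T1 to T12, 2.21% with additive hour and day, 1.88% with day alone, 0% for T7 to T9 against T1 to T3 (0 genes by edgeR, 736 at an unadjusted p under 0.05), and 0.517%, 0.423%, 0.0563% and 0.0657% without the hour of T1 and T7, T3 and T9, T5 and T11, and T6 and T12. Without 1 replicate letter it ranged from 0% to 0.435%, and without 1 library from 0.357% to 1.14% (38 to 121 genes); the cause was not tested. With limma-voom the calls of the 4 genes named for the largest changes were lost, at adjusted p-values of 0.394 (NVE19652), 0.076 (NVE15270), 0.09 (NVE19366) and 0.076 (NVE9434), while NVE4779 (4.6e-05) and NVE17084 (0.0335) kept theirs. The share of all genes stayed within 1.5 times with limma-voom (100 genes), RLE factors (103), shallow libraries kept (100), edgeR's newer fit (111), without T2 and T8 (131), without T4 and T10 (94), for T10 to T12 against T4 to T6 (79), and without DD T5 replicate B and DD T12 replicate A (88).

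The share dependent on the hour, 0.0188% (2 genes), became 0.0563% with DESeq2, 0.047% with only DD libraries, 0.0376% with the newer fit, 0% to 0.0181% without 1 letter and 0.0189% without DD T5 replicate B and DD T12 replicate A. The share whose change differed between arms, 0.0751% (8 genes), became 0.197% with DESeq2, 0.0123% with no filter, 0.0378% without DD T5 replicate B and DD T12 replicate A, and 0% to 0.0186% without 1 letter. The LD share, 4.08%, became 0.927% with no filter and 0.611% to 3.69% without 1 letter; with library size alone 505 genes were called, 105 of them higher, against 57.1% higher with TMM factors. The share between the third and the second day, 0.892%, became 1.52% with DESeq2, 0.164% with no filter and 0.121% to 0.435% without 1 letter.

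Pairing of libraries by replicate letter was weak at most, and its absence was not shown. Of 22 same-letter pairs, 1 correlated over 0.1, and the median correlation was 0.013 for same-letter and -0.008 for other-letter pairs. With 4 letters to choose from, 18 of 46 libraries were closest to their own letter. With the letter as a replicate block the shares were 0.761% between days in DD (81 genes), 0.0188% for the hours, 0.0751% for the arms, 3.78% for LD and 0.892% for the third day. No named gene with a direction changed sign in any setting run. Of the library summaries, the share of the 10 largest genes differed by 0.352 percentage points without the hour of T3 and T9 and by 0.708 to 1.15 points without 1 letter, and detected genes by -181.9 without the hour of T5 and T11; other settings of this kind, chosen after seeing the data, left each summary on its side of the threshold.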
